A study of Mus musculus with 24 samples.

Results

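Mouse chromosomes 11 and 17 were cut into windows of 1 Mb, and 209 of the 2582 windows (bins) tested on chromosomes 1 to 19 and X lie on them. All bins of both chromosomes with a mean total count of 100 or more were taken, except chr11:120000001-121000000 and chr17:39000001-40000000, which leaves 118 bins on chromosome 11 and 91 on chromosome 17 out of 218 in all. 7 bins held fewer reads than the minimum; the lowest bin inside it averaged 50145 reads and the highest bin outside it averaged 1.25 reads. The pair of chromosomes was chosen by its γH2AX signal, which stood high over input DNA in earlier results of these libraries, and chromosome 11 was split at 91 Mb and 118 Mb where the KO to WT ratio stepped in those results. The splits give 88 bins below 91 Mb, 27 bins from 91 to 118 Mb and 3 bins from 118 Mb. Levels of γH2AX over input or over H2AX, and KO against WT within 1 assay, are therefore descriptions here; changes of γH2AX relative to input or H2AX, H2AX against input, the clones and the parental genomes were tested.

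ChIP-seq libraries of γH2AX, total H2AX and input DNA came from female C57BL6/CAST hybrid cells named TTF, in a study of how the deacylase SIRT7 bears on X-chromosome dosage. The 24 samples form 12 groups of 2, and every label states an X-ray dose of 5 Gy followed by a 30 minute recovery. SIRT7-KO cells lack the SIRT7 deacylase and were set against WT cells, each with all 3 assays. A further experiment used SIRT7-KO clones, these clones complemented with SIRT7-WT, and HY clones, a name the labels do not explain, with γH2AX and H2AX libraries used here; each of these groups holds 2 different clones, so its spread includes differences between clones. WT columns stand beside the clones in the same count table. The columns of the KO and WT table end in NT or Xray although the labels give X-rays for all, so the libraries are called by those endings and the NT-named and Xray-named library of a group were taken as its 2 samples. The NT-named WT library is also WT replicate 2 of the clone table, while WT replicate 1 there matches neither library of the KO and WT table, so 3 different WT libraries per assay stand for 2 labelled samples, and which sample the Xray-named one belongs to is not settled by the labels. Nothing says whether samples came from separate cultures, and p-values measure only the spread between these libraries. The bin that holds Sirt7 is the one left out of chromosome 11, so the deletion is not checked at 1 Mb resolution.

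H2AX is a histone variant spread through the genome, and γH2AX is its form phosphorylated by the damage kinases ATM, ATR and DNA-PK. Around a double-strand break the mark spreads over long stretches of chromatin, where the adaptor Mdc1 binds it and brings in the ubiquitin ligase Rnf8. Input DNA is sonicated chromatin without antibody, and its reads follow how much DNA of a region the cells and the alignment contribute.

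Sequences are shown for promoters from the bins highest and lowest in γH2AX over input in WT, since both ends of the list differed in gene and CpG content. Each is the 250 bases before a gene's start from RefSeq (GRCm38.p6), 5′ to 3′ on the gene's strand, with every CG dinucleotide in capitals. Antkmt (chr17:25792395-25792644, minus strand), a mitochondrial methyltransferase gene, and Dus3l (chr17:56764501-56764750, plus strand), a tRNA dihydrouridine synthase gene, stand for the high bins as the coding promoters nearest to the GC mean of that set. Gm33890 (chr17:60958947-60959196, minus strand) and Gm34038 (chr17:61477458-61477707, plus strand), both long non-coding RNA genes, are the only promoters that the table holds in the 5 lowest bins.
Antkmt: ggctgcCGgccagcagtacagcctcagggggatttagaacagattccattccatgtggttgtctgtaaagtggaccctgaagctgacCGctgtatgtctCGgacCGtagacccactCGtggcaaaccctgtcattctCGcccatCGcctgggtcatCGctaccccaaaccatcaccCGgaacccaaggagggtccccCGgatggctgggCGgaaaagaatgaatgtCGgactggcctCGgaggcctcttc
Dus3l: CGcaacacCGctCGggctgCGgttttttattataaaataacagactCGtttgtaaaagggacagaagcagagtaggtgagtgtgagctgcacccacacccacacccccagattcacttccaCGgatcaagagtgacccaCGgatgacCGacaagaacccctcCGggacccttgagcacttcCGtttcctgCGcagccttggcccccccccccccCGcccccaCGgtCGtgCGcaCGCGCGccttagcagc
Gm33890: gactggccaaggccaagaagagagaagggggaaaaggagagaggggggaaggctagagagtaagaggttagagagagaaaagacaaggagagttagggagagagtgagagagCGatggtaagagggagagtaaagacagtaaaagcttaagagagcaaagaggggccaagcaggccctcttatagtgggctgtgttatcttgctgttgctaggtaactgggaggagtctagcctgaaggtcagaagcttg
Gm34038: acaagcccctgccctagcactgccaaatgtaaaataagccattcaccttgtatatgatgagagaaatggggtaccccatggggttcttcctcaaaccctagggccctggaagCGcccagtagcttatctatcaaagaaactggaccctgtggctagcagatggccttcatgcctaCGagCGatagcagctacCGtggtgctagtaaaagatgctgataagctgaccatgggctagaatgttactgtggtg
The stretches hold 13 and 18 CG in the high bins, against 1 and 4 in the low bins. In windows that also take the 50 bases after the start, the 220 promoters of the 5 highest bins averaged 15.8 CG and 58.2% GC, the 2 promoters of the 5 lowest averaged 2.5 CG and 50.8% GC, and all 32851 promoters averaged 12.4 CG and 53.8% GC. CG, which reads the same on both strands, occurred at least once in 94.6% of all promoters.

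Library totals ran from 170013624 to 268180310 reads in the KO and WT table and from 70349148 to 155364952 reads in the clones. The member bin with the fewest reads held 33624 in any library of the KO and WT table, a counting error of 0.545%, so the spread between libraries and not depth set the precision. That spread was widest for γH2AX: the log2 difference between the 2 libraries of a group had an SD over member bins of 0.12 in KO and 0.11 in WT, against 0.02 and 0.04 for H2AX and 0.03 and 0.02 for input.

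γH2AX over input was above that of the other autosomes on chromosome 11 and near it on chromosome 17. As the mean over bins of the log2 ratio of TMM-scaled read counts (CPM, in which every library has the same effective total), the NT-named and Xray-named KO libraries gave 0.02 and 0.04 below 91 Mb, 0.12 and 0.16 from 91 to 118 Mb, 0.21 and 0.32 from 118 Mb, and 0.01 and 0.01 on chromosome 17; the WT libraries gave 0.05 and 0.07, 0.16 and 0.19, 0.37 and 0.48, and 0.03 and 0.04 in the same order. As a ratio of summed counts the KO value was 0.08 below 91 Mb and 0.05 on chromosome 17, over 1.5 times the mean over bins of 0.03 and 0.01, and the WT value from 91 to 118 Mb was 0.21, beside 0.18. The other autosomes stood at -0.01 and -0.02 in KO and at 0.01 and 0.00 in WT. Chromosome 11 ranked 1 of 20 chromosomes in both KO and WT, while chromosome 17 ranked 5 in KO and 6 in WT. Of the 209 members, 126 lay above 0 in KO and 138 in WT. The pair was chosen by this ratio and the share over all bins is not set beside them, so nothing is read from these counts.

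Set against total H2AX in place of input, the same chromosomes did not stand high. By the ratio of γH2AX to H2AX chromosome 11 ranked 10 and chromosome 17 ranked 19 of 20, in KO and in WT. By H2AX to input they ranked 1 and 3. The name given to the pair for high γH2AX thus holds over input, for chromosome 11 more than for chromosome 17, and does not hold over H2AX. Across the 209 bins the γH2AX to input ratio and the H2AX to input ratio had a Spearman rho of 0.92 in KO and 0.92 in WT, a description across bins that share the input libraries; over the 2203 bins of the other autosomes rho was 0.89 in KO and 0.87 in WT.

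H2AX over input was tested, since it is a separate antibody from the one behind the choice of chromosomes. The input libraries are shared, and across members the ratio followed γH2AX over input (Spearman's rho 0.92 in KO and 0.92 in WT). Higher calls on these chromosomes are therefore not independent of their choice. In KO, 118 of 209 bins were higher and 53 lower by edgeR's quasi-likelihood test with a Benjamini-Hochberg adjusted p under 0.05, against 39% and 41.2% of all 2582 bins. In WT, 116 were higher and 48 lower, against 37.3% and 38.8%; without the Xray-named WT H2AX library 80 members in all were called. Higher calls thus outnumbered lower ones among the members, where both were about as frequent over all bins. The highest in both genotypes was the gene-rich bin chr17:56000001-57000000, at 516 and 519.8 H2AX CPM for KO and 578 and 607 CPM for WT beside 391 and 386 input CPM for KO and 432 and 425 CPM for WT (log2 0.43 in KO and 0.47 in WT). The lowest in both was chr17:16000001-17000000, in which RefSeq lists no protein-coding gene, at -0.32 in KO and -0.37 in WT. Summed over a segment, with reads of the other autosomes as library size, log2 H2AX over input was 0.07 ± 0.01 (SE) in KO and 0.09 ± 0.01 in WT below 91 Mb, 0.14 ± 0.01 in KO and 0.16 ± 0.02 in WT from 91 to 118 Mb, 0.27 ± 0.06 in KO and 0.29 ± 0.04 in WT from 118 Mb, and 0.05 ± 0.004 in KO and 0.06 ± 0.01 in WT on chromosome 17. All passed (adjusted p 0.00018, 0.000456, 0.0076 and 0.000198 in KO and 0.00489, 0.00431, 0.00489 and 0.00766 in WT, by the same edgeR test over 22 regions), in a setting where 19 of the 22 regions passed in KO and 14 in WT. The pass from 118 Mb in KO was lost without either KO input library, and that of chromosome 17 in WT without either WT input library.

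Gene content went with the γH2AX level. The mean number of protein-coding genes per bin was 11.2 below 91 Mb, 19.4 from 91 to 118 Mb, 16.3 from 118 Mb and 11.5 on chromosome 17, against 8.13 on the other autosomes. Spearman's rho between genes per bin and γH2AX over input was 0.66 in KO and 0.69 in WT over the 209 bins, and 0.62 and 0.65 over the 2203 bins of the other autosomes. With promoter GC, rho was 0.59 in KO and 0.64 in WT over 198 member bins that hold a promoter. Neighbouring bins share mappability and base composition, and the part of either in the relation was not tested.

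**Figure D1:**
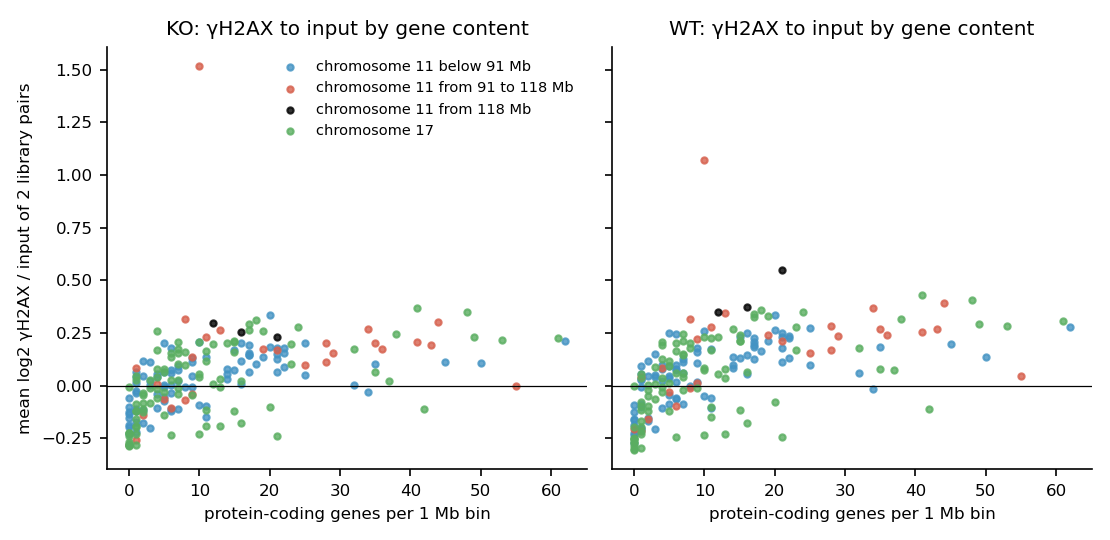
Mean log2 ratio of γH2AX to input of the 2 libraries (vertical axis) against the number of protein-coding genes in each of the 209 bins (horizontal axis), for KO on the left and WT on the right, coloured by segment. Bins with few genes sit lowest, and 1 bin of chromosome 11 with 10 genes stands alone at 1.52 in KO and 1.07 in WT.

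That lone bin was chr11:109000001-110000000, which holds Prkar1a, the regulatory subunit of protein kinase A, and the G protein gene Gna13. It had 1370.3 and 838 γH2AX CPM in the NT-named and Xray-named KO libraries and 981 and 724 CPM in the WT libraries. Its H2AX was 376 and 385 CPM for KO and 419 and 431 CPM for WT, and its input 372 and 375 CPM for KO and 400.1 and 401 CPM for WT. The γH2AX reads were thus high without matching H2AX or input, more so in the NT-named library of each genotype, and the bin ranked 2 of 2582 by γH2AX over input in both. Without it the mean of the segment from 91 to 118 Mb was 0.09 in KO and 0.14 in WT.

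The other 4 of the 5 highest bins in WT were gene-rich. chr17:56000001-57000000, with 41 protein-coding genes among them Uhrf1, which maintains DNA methylation, had log2 γH2AX over input of 0.22 and 0.52 in the KO libraries and 0.29 and 0.57 in the WT libraries. chr17:25000001-26000000, with 48 genes, had 0.24 and 0.45 in KO and 0.32 and 0.50 in WT, and chr11:115000001-116000000, with 44 genes among them the signalling adaptor Grb2, had 0.20 and 0.40 in KO and 0.27 and 0.51 in WT. The fourth, chr11:121000001-122000000, had 0.23 and 0.24 in KO against 0.54 and 0.56 in WT. At the other end chr17:59000001-60000000, chr17:60000001-61000000, chr17:61000001-62000000, chr17:76000001-77000000 and chr17:92000001-93000000 hold 1 protein-coding gene between them, Nudt12, an NADH hydrolase gene, and averaged -0.28 to -0.23 in KO and -0.31 to -0.27 in WT.

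KO and WT differed along both chromosomes, in each of the 3 assays alike. Input reads below 91 Mb made 3.51% and 3.50% of those on the other autosomes for the KO libraries and 3.21% and 3.21% for WT. From 91 to 118 Mb they made 1.33% and 1.32% in KO and 1.07% and 1.07% in WT, and from 118 Mb 0.0733% and 0.0726% in KO and 0.142% and 0.142% in WT. On chromosome 17 they made 3.96% and 3.97% in KO and 4.55% and 4.55% in WT. Both KO libraries stood above both WT libraries on chromosome 11 up to 118 Mb, and below them beyond it and on chromosome 17. The log2 ratio of KO to WT was 0.13 ± 0.004, 0.31 ± 0.01, -0.96 ± 0.02 and -0.20 ± 0.002 (SE) for input, 0.11 ± 0.01, 0.29 ± 0.02, -0.98 ± 0.03 and -0.21 ± 0.01 for H2AX, and 0.13 ± 0.03, 0.31 ± 0.03, -1.10 ± 0.03 and -0.20 ± 0.03 for γH2AX, in that order of regions.

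**Figure D2:**
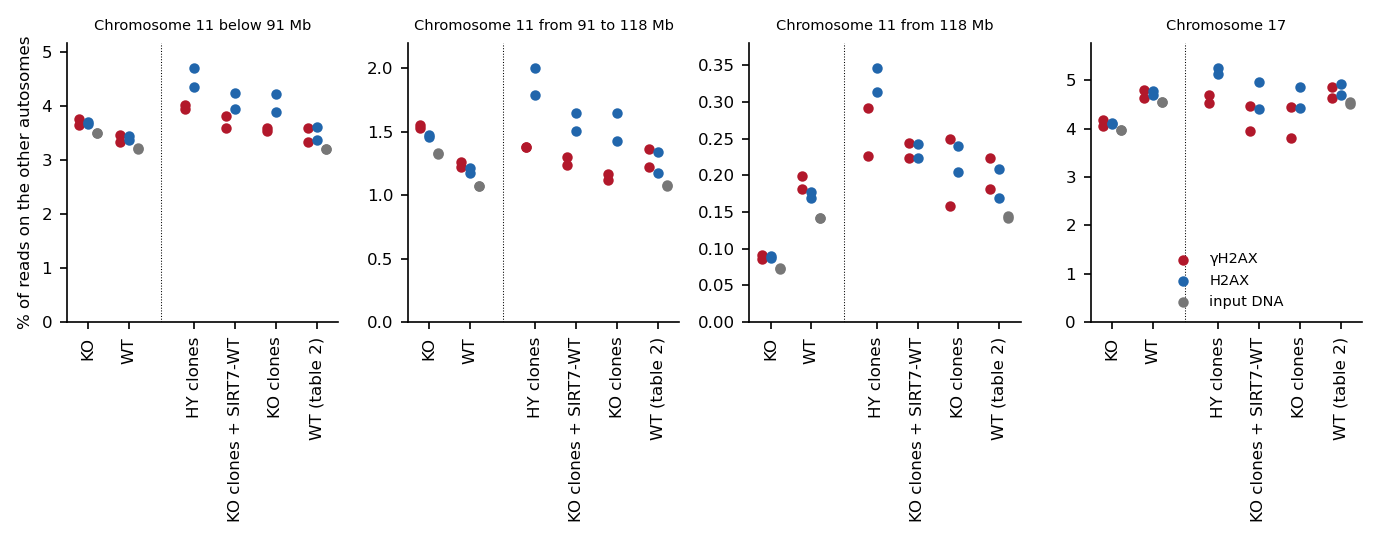
Reads of each segment as a percentage of the reads on the other autosomes (vertical axes, which start at 0), with 1 point per library for γH2AX, H2AX and input DNA; the dotted line separates the KO and WT table from the table of clones with its own WT columns. From 118 Mb the KO libraries lie between 0.0726% and 0.0921%, below every other library.

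By bin, γH2AX was called higher in KO in 58 members and lower in 34, against 22.4% and 13.2% of all bins. H2AX was called higher in 67 and lower in 103, against 34.4% and 32.1%. Input was called higher in 78 and lower in 113, against 38.3% and 41.4%. Nothing is read from these shares, since this contrast set the splits. Leaving out the Xray-named KO, the NT-named WT or the Xray-named WT γH2AX library left 61, 36 and 53 members called for γH2AX. For input, the segment below 91 Mb held 57 higher and 13 lower bins, that from 91 to 118 Mb 21 and 6, that from 118 Mb 0 and 3, and chromosome 17 0 and 91.

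Chromosome 17 was shifted as 1 block: its 91 bins had log2 KO to WT ratios of input from -0.29 to -0.07. Chromosome 11 moved in steps. A stretch was ended wherever neighbouring bins differed by more than 0.18 in log2 KO to WT of input, a value set after the data were seen. Only some of the stretches of 3 or more bins are given here. Their mean was 0.05 over the first 20 bins, 0.28 from 42 to 46 Mb, 0.32 from 51 to 55 Mb, 0.28 from 67 to 87 Mb, 0.54 from 87 to 102 Mb, 0.32 from 102 to 107 Mb, -0.13 from 107 to 112 Mb, 0.54 from 113 to 117 Mb and -0.93 from 118 Mb. Means are not given from 24 to 29, 30 to 42, 46 to 51, 55 to 58 and 60 to 64 Mb. The arm was not raised throughout: below 91 Mb the log2 ratio of input was above 0 in 63 bins and below 0 in 25. The step named at 91 Mb lay earlier, near 87 Mb: γH2AX was 0.50 ± 0.05 in the bin before 91 Mb and 0.51 ± 0.07 in the bin after it. At 118 Mb the step was between neighbouring bins: input was -0.12 ± 0.02 in the bin before it and -0.97 ± 0.02 in chr11:118000001-119000000, with γH2AX at -0.19 ± 0.07 before it.

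**Figure D3:**
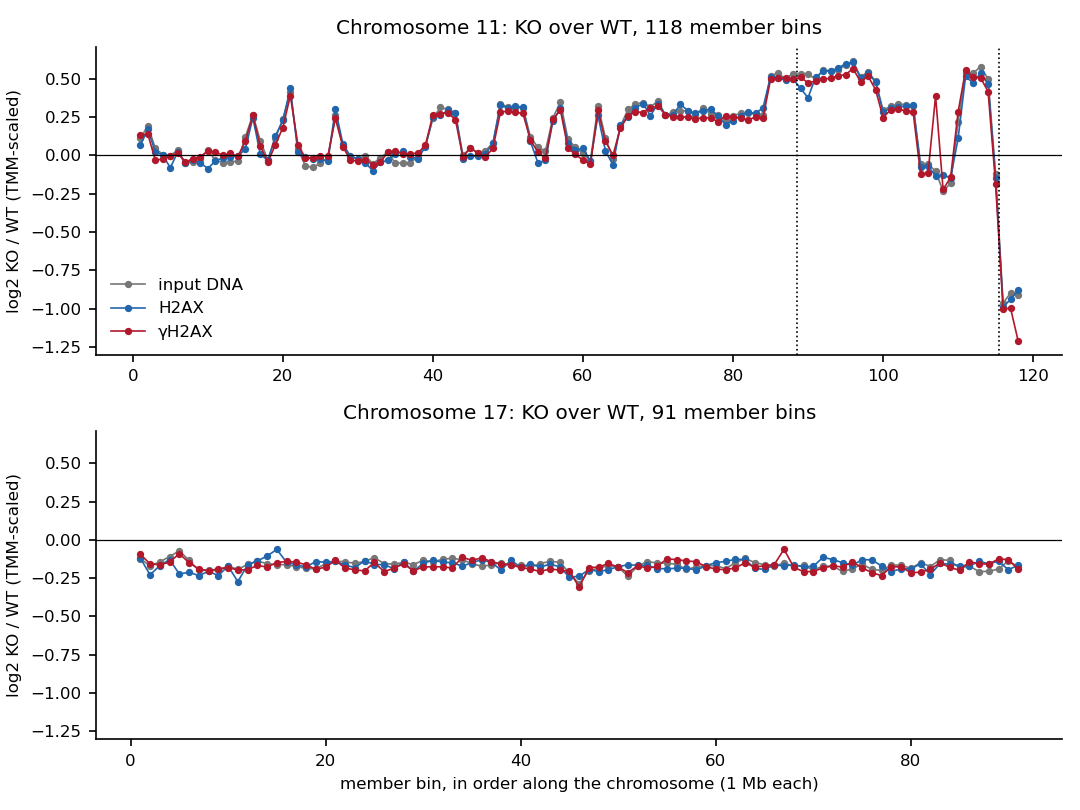
Log2 ratio of KO to WT (vertical axes, TMM-scaled) for each member bin in order along chromosome 11 (top, 118 bins) and chromosome 17 (bottom, 91 bins), with input DNA, H2AX and γH2AX as lines and the splits at 91 Mb and 118 Mb dotted. The 3 lines run together, apart mainly from 1 γH2AX point, the Prkar1a bin at 0.39, and the last bin of chromosome 11, at -1.21 for γH2AX and -0.91 for input.

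Relative to the median bin of the other autosomes, input at the end of chromosome 11 from 118 Mb stood at 0.661 and 0.655 in the KO libraries and at 1.22 and 1.22 in WT. From 107 to 118 Mb it was 1.35 and 1.35 in KO and 1.17 and 1.17 in WT, and below 91 Mb 1.08 and 1.08 in KO and 0.941 and 0.946 in WT. On chromosome 17 it was 1.18 and 1.18 in KO and 1.29 and 1.30 in WT. The amount of DNA per cell and the share of cells that hold a region cannot be told apart in these bulk libraries.

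The bins at the extremes carry well-known genes. The highest γH2AX ratio was in chr11:98000001-99000000, with the receptor tyrosine kinase gene Erbb2 and the retinoic acid receptor gene Rara: γH2AX was 523 and 566 CPM for KO and 354 and 390.2 CPM for WT, and input was 488 and 477 CPM for KO and 317 and 312 CPM for WT. chr11:96000001-97000000, with the Hoxb cluster of homeobox genes, stood at log2 0.52 ± 0.05 for γH2AX and 0.56 ± 0.02 for input. The lowest were the last 3 bins of chromosome 11. chr11:118000001-119000000, with the metalloproteinase inhibitor gene Timp2, had 237 and 256 γH2AX CPM for KO and 475 and 523 CPM for WT, and 200.1 and 201 input CPM for KO and 386 and 395 CPM for WT. On chromosome 17 the lowest was chr17:49000001-50000000, with the formin gene Daam2, at 385 and 389 γH2AX CPM for KO and 476 and 496 CPM for WT, beside 342 and 347 input CPM for KO and 416 and 425 CPM for WT. In each of these bins KO and WT libraries did not overlap, and input was apart in the same direction. The bins were picked as the largest γH2AX changes among those called, so such separation goes with the pick.

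Once γH2AX was set against input or H2AX, no member was called between KO and WT by edgeR without a replicate block. With a block by library name, members were called relative to input, as given in the last section. Same-named KO and WT libraries deviated together across bins (r = 0.96 for γH2AX), which the fit without a block counts as spread. In the edgeR interaction test over 8 libraries 0 of 209 members and 0% of all bins passed for γH2AX relative to input, and likewise 0% relative to H2AX; at an unadjusted p under 0.05 there was 1 member each, of 15 and 24 bins in all, and DESeq2 called 1 member each. Relative to input, the segment sums differed by -7.25e-05 below 91 Mb, 0.005 from 91 to 118 Mb, -0.14 from 118 Mb and 0.002 on chromosome 17, with SEs of 0.03, 0.02, 0.06 and 0.03 and adjusted p of 0.72 or more by edgeR. Relative to H2AX they differed by 0.01, 0.02, -0.12 and 0.01, with SEs of 0.03, 0.03, 0.07 and 0.03 and adjusted p of 0.861 or more.

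The 1 member below 0.05 before adjustment was the last member bin of chromosome 11, chr11:121000001-122000000, which holds Tbcd, a tubulin folding cofactor, the fructosamine kinase gene Fn3k and the repressor gene Foxk2. It had 258 and 260.3 γH2AX CPM for KO and 609 and 604 CPM for WT, 239.8 and 241 H2AX CPM for KO and 452 and 449.97 CPM for WT, and 219.9 and 220.5 input CPM for KO and 419 and 409 CPM for WT. γH2AX thus stood further apart than H2AX and input did, by log2 -0.32 ± 0.04 relative to input (edgeR adjusted p = 0.123) and -0.34 ± 0.04 relative to H2AX (edgeR adjusted p = 0.112). The adjusted p was 0.00447 and 0.00396 when all libraries shared 1 estimate of spread, and 2.39e-20 and 3.61e-24 with DESeq2.

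The gene lists are read beside the shares of all bins called in KO against WT, which were 22.4% higher and 13.2% lower for γH2AX and 38.3% higher and 41.4% lower for input. The DNA repair and damage signalling list (19 genes in 16 bins) had 9 bins called higher in KO and 0 lower for γH2AX, and 9 higher and 7 lower for input. Trp53, the p53 tumour suppressor gene, lies at chr11:69000001-70000000, with a log2 KO to WT ratio of 0.29 ± 0.06 for γH2AX and 0.34 ± 0.02 for input, and Brca1, which acts in homologous recombination, at chr11:101000001-102000000, with 0.43 ± 0.07 and 0.49 ± 0.02. Mdc1, the γH2AX-binding adaptor, lies on chromosome 17 at chr17:35000001-36000000, with -0.18 ± 0.08 for γH2AX and -0.12 ± 0.02 for input. The 3 bins of the major histocompatibility complex had 0 calls for γH2AX and 3 lower calls for input. The type I keratins (2 bins), the CC chemokines (2 bins), the skeletal myosin heavy chains (1 bin) and the Hoxb cluster (1 bin) were called higher in KO for both. Of 12 chromatin regulator bins 7 were called higher and 1 lower for γH2AX, against 7 and 4 for input; of 14 bins with growth control genes and oncogenes, 5 and 2 against 6 and 8; of 7 fibroblast and matrix bins, 3 and 2 against 4 and 3; of 3 bins with imprinted genes, 1 and 0 against 1 and 1. The alpha globin bin had no call in either. Of 5 bins with Vmn2r vomeronasal receptor genes, expressed in the sensory organ for pheromones, 1 was called lower for γH2AX and 5 for input; their median log2 γH2AX over input was -0.23 in KO and -0.23 in WT, against 0.16 in KO and 0.21 in WT for the DNA repair list.

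No member was called for γH2AX between clone types by edgeR without a replicate block. Adding SIRT7-WT to the KO clones gave 0 of 209 members called for γH2AX and for H2AX by edgeR, and 0% of all bins in both; 1 and 0 members had an unadjusted p under 0.05, and DESeq2 called 0 for both. The segment sums differed by 0.05, 0.15, 0.20 and 0.03 for γH2AX (SEs 0.12, 0.12, 0.18 and 0.13) and by 0.01, 0.03, 0.07 and 0.01 for H2AX. By the labels the same clones stand in both groups, but the columns name no clone and the fit left them unpaired. Same-numbered libraries of these groups deviated together across bins (r = 0.85 for γH2AX and 0.94 for H2AX). Differences between clones thus entered the spread, and the lack of calls does not show that SIRT7-WT had no effect. γH2AX relative to H2AX had 0% of bins called for both clone comparisons, with 0 members below 0.05 before adjustment. The mean log2 ratio of γH2AX to H2AX from 91 to 118 Mb was -0.37 and -0.57 in HY clones, -0.31 and -0.37 in KO clones with SIRT7-WT, -0.32 and -0.59 in KO clones and -0.005 and 0.01 in WT. All 6 clone libraries lay below both WT libraries there, and the clone groups overlapped. The other autosomes are not set beside these values, so they are not read as particular to this segment. It holds the most genes per bin of the segments (19.4). Over the other autosomes too, KO clones against WT went with genes per bin (Spearman's rho 0.65 for H2AX and -0.30 for γH2AX).

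The log2 difference of HY to KO clones was above 0 in all 8 segment sums of the 2 assays, and of these H2AX from 118 Mb passed the test. Over all 22 regions its median was also above 0, at 0.05 for γH2AX and 0.06 for H2AX. For γH2AX the share of the other autosomes was 3.95% and 4.02% in HY clones and 3.54% and 3.59% in KO clones below 91 Mb, 1.379% and 1.383% in HY clones and 1.17% and 1.12% in KO clones from 91 to 118 Mb, and 4.69% and 4.52% in HY clones and 4.45% and 3.81% in KO clones on chromosome 17. For H2AX it was 4.35% and 4.70% in HY clones and 3.88% and 4.23% in KO clones below 91 Mb, 1.79% and 2.00% in HY clones and 1.43% and 1.64% in KO clones from 91 to 118 Mb, and 5.13% and 5.25% in HY clones and 4.86% and 4.43% in KO clones on chromosome 17. HY and KO clone libraries did not overlap in these 6 pairs, whose log2 differences were 0.16, 0.27 and 0.16 for γH2AX (SEs 0.12, 0.12 and 0.13; edgeR adjusted p 0.262 or more) and 0.16, 0.30 and 0.16 for H2AX (SEs 0.12, 0.13 and 0.12; edgeR adjusted p 0.12 or more). How many of the 22 regions were without overlap was not counted, so nothing is read from these 6 pairs. H2AX from 118 Mb was 0.314% and 0.346% of the other autosomes in HY clones, 0.223% and 0.242% in KO clones with SIRT7-WT, and 0.204% and 0.239% in KO clones. Both HY libraries lay above the other 4. The log2 difference of HY to KO clones was 0.57 ± 0.13 (SE; adjusted p = 0.00155 over 22 regions by edgeR's quasi-likelihood test), and it did not pass without either HY library or without KO clones replicate 1 (0.643, 0.501 and 0.463). γH2AX there was 0.292% and 0.226% in HY clones and 0.249% and 0.159% in KO clones, which overlap, with a log2 difference of 0.34 ± 0.18 (edgeR adjusted p = 0.379). Per bin, 0 members were called for H2AX, against 0.62% of all bins, and 0 for γH2AX, against 0% of all. At an unadjusted p under 0.05 there were 15 of 209 members for H2AX and 11 for γH2AX, beside 308 and 189 of all 2582 bins. DESeq2 called 13 and 11 members. Its share over all bins is not set beside them, so nothing is read from these counts. The log2 difference was above 0 in 205 members for H2AX and 203 for γH2AX, and in 1380 and 1247 of all 2582 bins. Its medians were 0.14 and 0.13 in members, beside 0.02 and -0.01 over all bins. Between 107 and 118 Mb, edges set after the values were seen, it averaged 0.48 for H2AX and 0.44 for γH2AX.

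KO clones were also set against WT, with 1 WT library of each assay shared with the comparison of KO cells. Summed over segments γH2AX differed by 0.04 ± 0.11 below 91 Mb, -0.18 ± 0.11 from 91 to 118 Mb, 0.01 ± 0.16 from 118 Mb and -0.20 ± 0.12 on chromosome 17, and H2AX by 0.22, 0.29, 0.23 and -0.05, none past the threshold by edgeR. From 118 Mb the γH2AX share was 0.249% and 0.159% in KO clones against 0.223% and 0.182% in WT, where KO cells had 0.0856% and 0.0921% in the other table. The low reading of that end in the KO cell libraries was not seen in the KO clones. Clone inputs were not used here, so the clones are given without DNA content beside them.

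H2AX was called higher in KO clones than in WT in 66 members and lower in 60, against 25.8% and 29.7% of all bins, shares near the background. Without WT replicate 2 or KO clones replicate 2, 63 and 71 members were called in all. The calls sorted by gene content: Spearman's rho between genes per bin and the log2 difference was 0.73 over the 209 members and 0.65 over the 2203 bins of the other autosomes, where γH2AX had -0.18 and -0.30. The highest bins were chr11:97000001-98000000, with the Polycomb gene Pcgf2, at 625 and 770.1 H2AX CPM in KO clones and 470.5 and 376 in WT, a log2 difference of 0.72 ± 0.14 (edgeR adjusted p = 0.000509), and the Trp53 bin at 615 and 711 CPM in KO clones and 445 and 366 in WT, a difference of 0.71 ± 0.13. The lowest was on chromosome 17: the Nudt12 bin had 156 and 133 H2AX CPM in KO clones and 272 and 358 in WT (-1.12 ± 0.17). In these 3 bins KO clones and WT did not overlap, which goes with their pick as the largest changes among those called. All 5 Vmn2r bins were called lower and 13 of the 16 DNA repair bins higher. Whether clones and WT were prepared together is not stated, and the part of a preparation difference was not tested.

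γH2AX was called in 1 member between KO clones and WT, against 0.387% of all bins: the Prkar1a bin, with 511 and 429 CPM in KO clones and 999.8 and 997 in WT, a log2 difference of -1.06 ± 0.17 (edgeR's quasi-likelihood test, adjusted p = 0.0118). HY clones had 594 and 590.2 CPM there and KO clones with SIRT7-WT 467 and 700.1, so all 6 clone libraries lay below the WT libraries set beside them. The Xray-named WT library is not among those. Its log2 γH2AX over input in this bin was 0.85, against 1.29 in the NT-named WT library. KO cells stood above the same-named WT library, at 1.16 (Xray-named) and 1.88 (NT-named). The separation of clones from WT is thus given for WT replicates 1 and 2 only. The bin was not called without WT replicate 1 (edgeR adjusted p = 0.363) or WT replicate 2 (0.301). Without KO clones replicate 1 or 2, 22 and 2 members were called; at an unadjusted p under 0.05 there were 53 members of 372 bins in all, and DESeq2 called 11. H2AX of the Prkar1a bin was 446 and 504 CPM in KO clones and 499.5 and 428 in WT, which overlap. The last bin of chromosome 11 was uneven among clones: γH2AX was 1171 and 775 CPM in HY clones, 886 and 1067 in KO clones with SIRT7-WT, 1164 and 571 in KO clones and 719.5 and 619 in WT.

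WT reads assigned to the parental genomes, named genome1 and genome2 in the files without saying which strain each is, were uneven along chromosome 11. In WT input the median genome1 share of a bin was 61.7% and 61.9% in the 2 libraries below 91 Mb and 57.2% and 57.2% on chromosome 17. Over summed reads the share was 60.2% and 60.2% below 91 Mb, 54.6% and 54.5% on chromosome 17 and 53.8% and 53.8% on the other autosomes. Single chromosomes among those ran from 29.5% and 29.5% (chromosome 16) to 68.0% and 68.0% (chromosome 3), so an uneven share is not particular to chromosomes 11 and 17. From 91 to 107 Mb it was 62.7% and 62.8%, and from 107 to 118 Mb 44.9% and 44.8%, edges set after the values were seen. The change at 107 Mb was on the genome2 side: genome1 gave 265 and 255 reads per bin from 107 to 118 Mb, on a CPM scale over the assigned reads of the other autosomes, and 270 and 266 from 91 to 107 Mb, while genome2 gave 321 and 311 from 107 to 118 Mb and 158 and 156 from 91 to 107 Mb. The same place is a step of the KO to WT ratio, where input was 0.32 from 102 to 107 Mb and -0.13 from 107 to 112 Mb. A single bin, chr11:18000001-19000000, named after its values were seen, had 12.8% and 13.0% genome1 in γH2AX, 14.0% and 13.4% in H2AX and 12.8% and 12.2% in input. Parental counts of KO cells and clones were not used here.

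**Figure D4:**
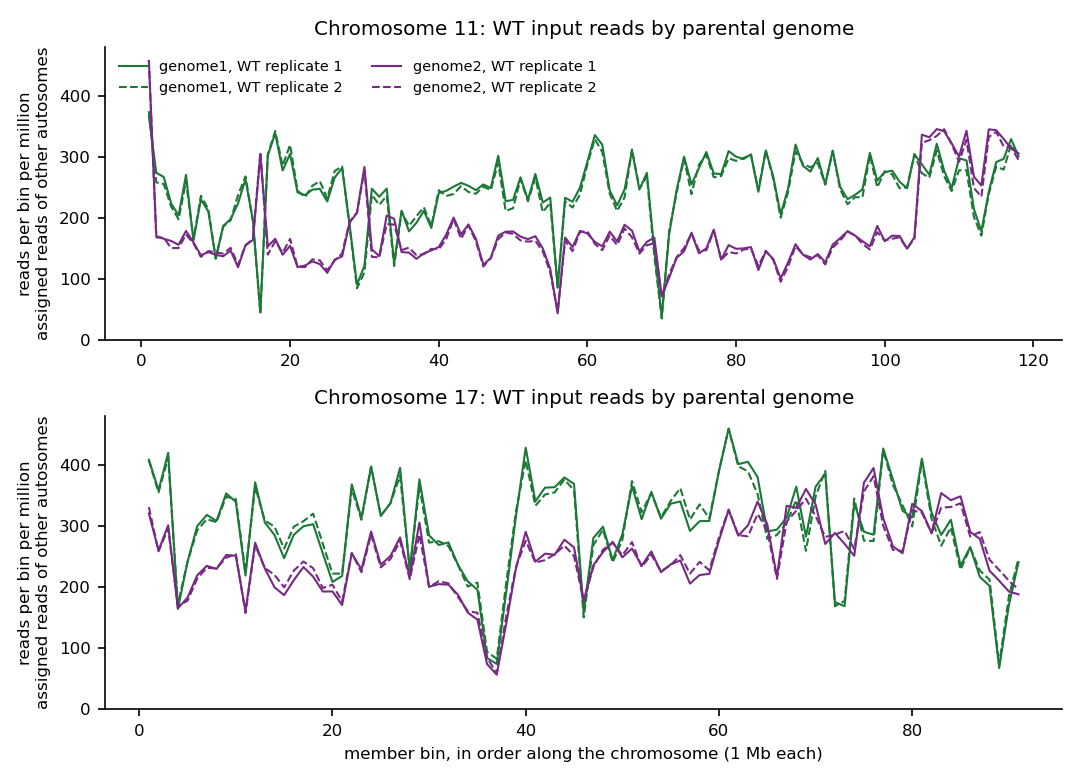
WT input reads per bin in parts per 1000000, scaled to reads assigned to a parent on the other autosomes (vertical axes), along the member bins of chromosome 11 (top) and chromosome 17 (bottom), for genome1 and genome2 in both WT libraries. On chromosome 11 genome2 stands near 158 reads per bin from 91 to 107 Mb and near 321 from 107 to 118 Mb, while genome1 stays near 270.

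Few bins had a parental balance of γH2AX apart from that of input or H2AX. Relative to input, 1 member was called toward genome1 and 3 toward genome2 by edgeR, against 2.48% of 2577 bins in both directions together. Relative to H2AX, 2 and 4 were called, against 4.27%; 3 were called without H2AX replicate 1. In the last bin of chromosome 11, genome1 had 40.9% and 42.2% of γH2AX reads, 51.2% and 50.6% of H2AX reads and 49.6% and 50.3% of input reads. The γH2AX libraries lay below the other 4, by log2 -0.49 ± 0.02 relative to input (adjusted p = 2.73e-29) and -0.54 ± 0.03 relative to H2AX (adjusted p = 1.56e-31, edgeR). The neighbouring chr11:118000001-119000000 and chr11:119000001-120000000 were not called, at -0.04 ± 0.02 and -0.05 ± 0.02 relative to input.

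On chromosome 17, chr17:70000001-71000000 was called in the same direction. It holds Dlgap1, a scaffold of the postsynaptic density, the myosin light chain genes Myl12a and Myl12b, and the homeobox repressor gene Tgif1. genome1 had 41.6% and 38.7% of γH2AX reads, 48.2% and 49.0% of H2AX reads and 48.5% and 49.9% of input reads, a log2 difference of -0.54 ± 0.03 relative to input (edgeR adjusted p = 1.84e-27) and -0.50 ± 0.03 relative to H2AX. γH2AX in this bin was 491 and 411 CPM for KO and 504 and 448 CPM for WT, beside 373 and 376 input CPM for KO and 414 and 418 CPM for WT. The Prkar1a bin, high in γH2AX, had no such imbalance (0.03 ± 0.02 relative to input). The first member bin of chromosome 11, chr11:3000001-4000000, was called relative to input (-0.19 ± 0.02; 41.0% and 41.9% for γH2AX, 44.5% and 45.0% for input) but not relative to H2AX (-0.03 ± 0.02, H2AX 41.1% and 42.7%). The alpha globin bin was called toward genome1, at 31.1% and 30.7% for γH2AX, 29.1% and 28.6% for H2AX and 30.0% and 28.4% for input (0.12 ± 0.03, edgeR adjusted p = 0.0212, which became 0.343 without γH2AX replicate 1 and 0.897 without input replicate 2).

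**Figure D5:**
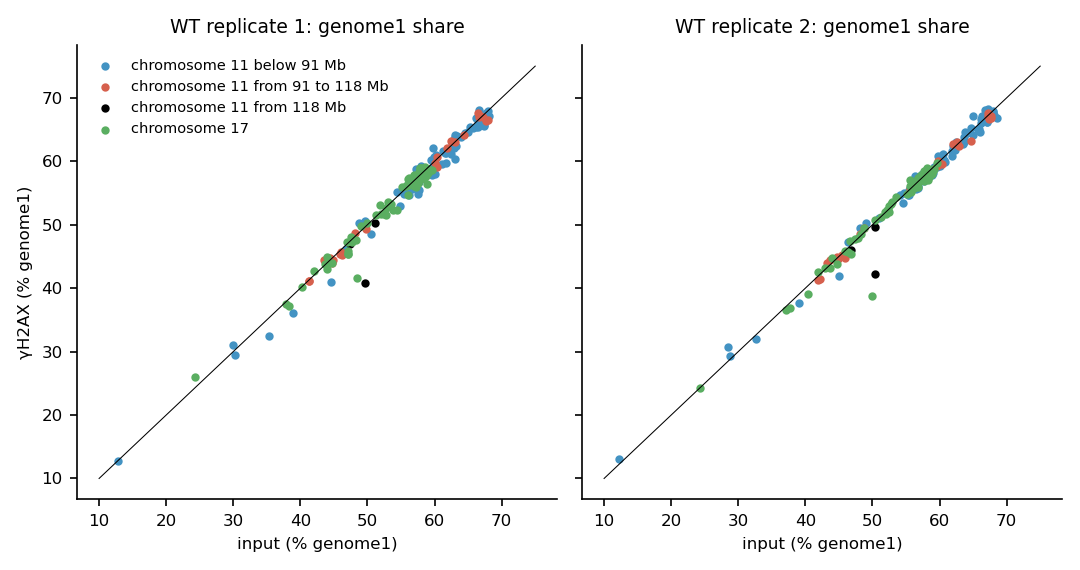
Share of parent-assigned reads from genome1 in γH2AX (vertical axis) against input (horizontal axis), in percent, 1 point per member bin, for WT replicate 1 (left) and WT replicate 2 (right); the line marks equal shares. The last bin of chromosome 11 and chr17:70000001-71000000 lie below the line in both libraries, at 40.9% and 42.2% and at 41.6% and 38.7% of γH2AX reads.

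By the profile over the 12 libraries of the KO and WT table, the bins most like the mean of their segment were chr11:74000001-75000000 below 91 Mb (Pearson's r = 0.992), chr11:100000001-101000000 from 91 to 118 Mb (r = 0.993) and chr17:88000001-89000000 (r = 0.991). Below 91 Mb 32 of 88 bins had r over 0.9, from 91 to 118 Mb 16 of 27, and on chromosome 17 27 of 91.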

How the data were processed

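ChIP-seq of γH2AX, H2AX and input DNA from 24 samples was deposited as 2 tables of whole-number read counts per 1 Mb bin (mm10), with columns for all reads and for reads assigned to genome1 or genome2. The submitters' processing notes name Bowtie2 2.2.9, Trimmomatic 0.36 and FastQC 0.11.3, with SAMtools 0.1.19; MACS2 2.2.7.1 and deepTools 2.4.2 are also named. Settings and any removal of duplicates: not given in the sources used here. Per the labels' protocols chromatin was sonicated to 300 to 500 bp. Of 144 value columns 48 were used and 96 were not used here. WT replicate 2 of the clone table equals the NT-named WT library in all 2645 bins of each assay, so the tables share it and were not pooled.

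Bins on the autosomes and X that averaged at least 100 reads were fitted together with edgeR 4.0.16 (TMM factors, quasi-likelihood F test, two-sided, Benjamini-Hochberg over 2582 bins, 2577 for parental reads, threshold 0.05) in R 4.3.3. For KO against WT and for H2AX against input, only libraries of the compared groups entered. Fits between clone types took the 6 clone libraries of the assay, HY clones included. With WT added, KO clones against WT took 8 libraries. γH2AX relative to H2AX in clones took the 12 clone libraries of both assays. Parental fits took all 3 assays. Segment sums took the reads of the other autosomes as library size and 1 common spread. Parental counts were fitted with the library as block. DESeq2 1.42.0 was an alternative, and log2 ratios used CPM plus 1. An exact permutation test of 2 against 2 cannot go below p = 0.333, so none is given. The fits were tested on simulated data. Genes and promoters came from RefSeq (GRCm38.p6). Members and gene lists were chosen with earlier results of these data known. Named bins were, per comparison, up to 5 highest and 5 lowest among those called, bins beside the splits and chromosome ends, and bins of listed genes (131 genes in 12 lists); stretches within chromosome 11 end where neighbouring bins differ by more than 0.18 in log2 KO to WT of input, set after their values were seen.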

Additional observations from a re-analysis of the deposited data

How the results depend on the processing

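Members called were counted again under each alternative. γH2AX in KO against WT (92) gave 160 with all libraries sharing the spread and 36 to 73 without 1 library. γH2AX relative to input (0) and relative to H2AX (0) gave 1 each with the DESeq2 test and 1 each with all libraries sharing the spread. H2AX against input gave 107 in KO with all libraries sharing the spread (171) and 80 to 139 in WT without 1 library (164). γH2AX of HY against KO clones (0) gave 11 with the DESeq2 test, and H2AX of HY against KO clones (0) gave 9 with the total of the other autosomes and 13 with the DESeq2 test. γH2AX of KO clones against WT (1) gave 11 with the DESeq2 test, 2 with all libraries sharing the spread and 0 to 22 without 1 library; H2AX of KO clones against WT (126) gave 63 to 128 and parental γH2AX relative to H2AX (6) gave 3 to 6 without 1 library. Without 1 library the sums for H2AX over input ran from 0.251 to 0.296 from 118 Mb in KO and from 0.0442 to 0.0715 on chromosome 17 in WT, and the sum for H2AX of HY against KO clones from 118 Mb ran from 0.463 to 0.693. As a ratio of summed counts, γH2AX to H2AX in KO turned to 0.00875 below 91 Mb and 0.000782 on chromosome 17, and 10 of the 16 level values moved by more than the spread between libraries. γH2AX to input was then 0.0808 in KO (0.0277 as a mean over bins) and 0.0807 in WT (0.0599) below 91 Mb, 0.214 in KO (0.143) and 0.209 in WT (0.177) from 91 to 118 Mb, and 0.0524 in KO (0.0108) and 0.0508 in WT (0.0365) on chromosome 17. The cause of these shifts was not tested, beyond fewer libraries or a shared spread by construction. Counts per bin are high, so the 2 libraries per group, not depth, limit what can be called.

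With a replicate block the counts were 171 for γH2AX in KO against WT, 25 relative to input, where 0 were called without it, 9 and 11 for γH2AX and H2AX of HY against KO clones and 63 for γH2AX of KO clones against WT; the sum for H2AX over input in KO from 118 Mb was 0.272 (adjusted p = 0.102), and the block changed no other count of members by over 1.5 times. 5 results passed with the block that did not without it: the sums for HY against KO clones below 91 Mb (0.16 for γH2AX, adjusted p = 0.0491; 0.159 for H2AX, adjusted p = 0.0255) and from 91 to 118 Mb (0.275, adjusted p = 0.0348; 0.304, adjusted p = 0.0101), and γH2AX relative to input in the last member bin of chromosome 11 (-0.317, adjusted p = 0.0391), all by edgeR. With 2 libraries a group the block rests on the shared library names only: same-named KO and WT libraries deviated together (r = 0.96 for γH2AX, 0.68 for H2AX and 0.49 for input, across bins). HY and KO clones are different clones by the labels, so a shared number pairs none of them. Their r was 0.37 for γH2AX and 0.14 for H2AX. In the same fit KO clones with and without SIRT7-WT had r of 0.85 and 0.94. Nothing is therefore read from the passes of HY against KO clones with the block. Same-numbered H2AX libraries of KO clones and WT deviated in opposite directions (r = -0.30); the crossed block, chosen after seeing the data, gave 140 calls.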
